A study of Mus musculus with 6 samples.

Results

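The genes described here encode the proteins that license origins of DNA replication and build the replication fork, 44 in all, chosen by name and function and read on Affymetrix mouse arrays. Each gene was represented by its brightest probe set among those that the platform annotation pairs with that symbol alone, and all 44 were measured in this way, out of 19938 genes with such a probe set and 35556 probe sets in all. RNA came from whole thymus of 10-day-old mice. The 3 RUNX2/MYC arrays hold genotype CD2-Myc/CD2-Runx2 on a C57BL6/CBA background, in which the CD2 locus control region drives both transgenes in the T-lineage, and the 3 wild-type (WT) arrays hold genotype C57/CBA with neither transgene. The labels give each array as a separate biological replicate, and littermates served as genotype controls according to the methods. Because the organ was not sorted, each value averages over thymocytes, stroma and any other cells, and fewer cells of a type cannot be told apart from less RNA per cell.

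A cell copies its genome once per cycle. In G1, the origin recognition complex (ORC) marks an origin, and CDC6 and CDT1 load the ring-shaped MCM2-7 helicase onto it, a step called licensing that geminin blocks after S phase begins. The kinases CDC7-DBF4 and cyclin E-CDK2 then start the fork by joining CDC45 and the GINS complex to MCM2-7, and primase, the DNA polymerases, the PCNA clamp with its RFC loader, the single-strand binder RPA, the flap nuclease FEN1 and the ligase LIG1 carry out synthesis. Thymocytes divide intensely before and just after the pre-T-cell receptor checkpoint, many of these genes are classic targets of E2F factors, and MYC is a known driver of S phase entry.

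The arrays were first set against their labels and against markers of other cells. Runx2, whose probe set was named through the study's list of probe set numbers, had log2 signals of 11.73, 11.78 and 11.96 on RUNX2/MYC replicates 1 to 3, against 7.94, 7.94 and 7.93 on WT replicates 1 to 3. The probe set of mouse Myc had lower values on all 3 RUNX2/MYC arrays, 10.51, 10.88 and 10.55, against 11.00, 11.26 and 11.12 in WT (adjusted p = 0.119 from limma), and whether it reads the MYC transgene is not known here, so it does not check that part of the genotype. For 11 measured of 12 thymocyte markers, signals were summed off the log scale, so the brightest count most. The log2 of that sum was 15.16 to 15.40 in RUNX2/MYC and 15.39 to 15.52 in WT. Of the 11, 8 had a negative log2 fold change, and the RUNX2/MYC arrays lay wholly below the WT arrays for 4 of them. Those 4 mark immature and CD4-bearing stages: Cd4 (-0.74), Rag1 (-0.62), Rag2 (-0.55) and Dntt (-0.52), none past an adjusted p under 0.05 from limma. Cd3d (0.32) lay wholly above. The remaining thymocyte markers overlapped between the groups, among them Ptcra (-0.19), which also marks an immature stage, Cd8a (0.10) and Cd1d1 (0.059). All 11 markers of thymic epithelium had a negative log2 fold change, and 9 lay wholly below WT, where 10.1% of all probe sets did. Dsc3 (-0.56) alone of them passed an adjusted p under 0.05 from limma (0.0428). The log2 of their summed signal ran from 13.65 to 13.83 in RUNX2/MYC, against 14.11 to 14.21 in WT. RUNX2/MYC replicate 2 had the highest value for 7 of 8 measured adipocyte markers, with Ucp1 at 9.93 against at most 6.95 on the other 5 arrays, and RUNX2/MYC replicate 1 for 3 of 4 measured erythroid markers. Summed signals of the other marker lists, again as log2, overlapped between the groups except those of B cells and erythroid cells. B cells had 10.28 to 10.52 in RUNX2/MYC, against 10.53 to 10.66 in WT. Erythroid cells had 10.03 to 11.36 in RUNX2/MYC, against 9.60 to 9.99 in WT.

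All 44 replication genes had a positive log2 fold change in RUNX2/MYC thymus against WT, and the shift was small: the median was 0.25, or 1.19-fold, with a range of 0.012 (Pcna) to 0.55 (Pole2). No member passed an adjusted p under 0.05 from limma in either direction, where 1.68% of all probe sets were called higher and 0.127% lower. Before adjustment, limma gave 21 of the 44 a p under 0.05 and a higher value and 0 a lower one, beside 12.0% and 9.27% of all probe sets, and these are the 21 members whose 95% confidence interval lay above 0. The 3 RUNX2/MYC arrays lay wholly above the 3 WT arrays for 26 members and wholly below them for 0, where 14.3% and 10.1% of all probe sets had no overlap in those directions. Over all probe sets the median log2 fold change was -0.051 with 42.3% above 0. Bright genes as a whole lay higher, however: for the 10797 genes of single-symbol probe sets with a mean signal above the median probe set, the median was 0.091 and 64.0% were above 0, limma gave 22.7% a higher value at an unadjusted p under 0.05, and 26.9% lay wholly above WT. The methods' test with q values called 4 members higher (Mcm8, Pola2, Pold1 and Rpa2), where it called 3.41% of all probe sets higher. Limma with a prior variance that follows signal called 1, Pold2, where the share of all probe sets was 2.96%, and limma with array weights, whose estimation did not converge, called 30, where that share was 25.8%. The lowest adjusted p from limma was 0.0748, for Pold2, and standard errors of single members ran from 0.0778 to 0.183 on the log2 scale.

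**Figure D1:**
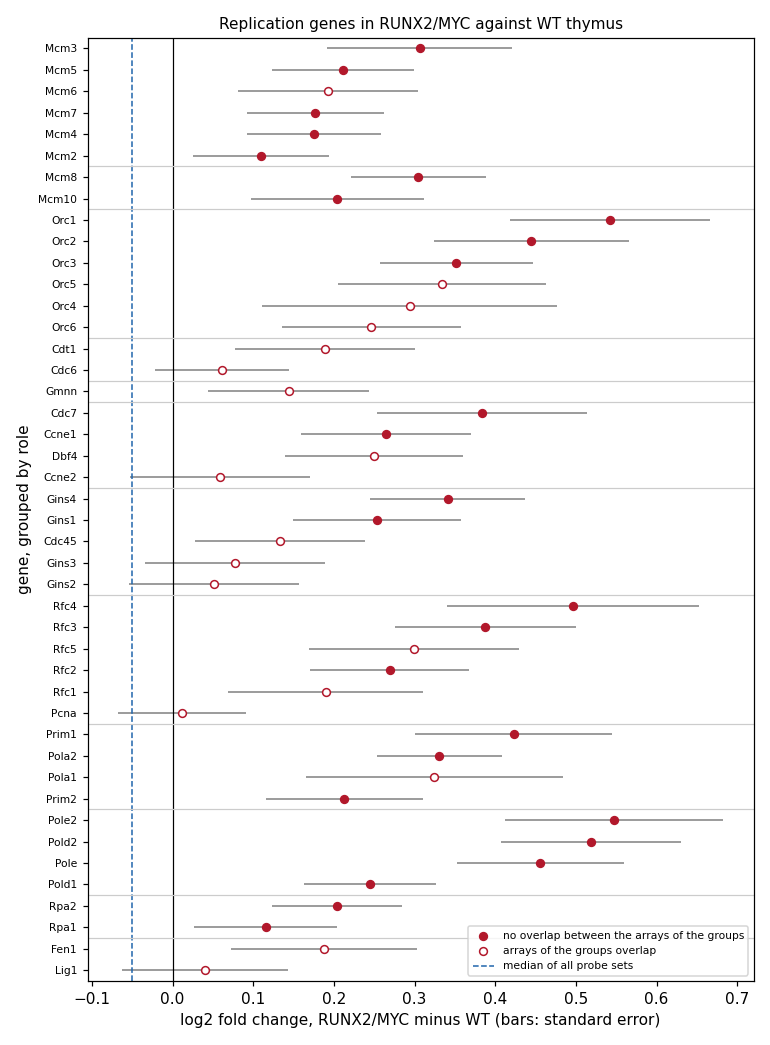
Log2 fold change (x axis, RUNX2/MYC minus WT) of each of the 44 replication genes (y axis, grouped by role), with bars for the standard error of limma. Filled points mark the 26 genes whose arrays did not overlap between the groups, and all points lie right of 0 and of the dashed median of all probe sets (-0.051).

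The sequence around the start sites of these genes was read as well. The genes were chosen by function, and many are classic E2F targets, so their E2F matches are not independent of that choice. RefSeq promoter windows (GRCm38.p6, 250 bases before to 50 bases after a start) were at hand for 35 of the 44 members, 44 windows in all, since some genes have several starts. Both strands were searched for 2 core forms of the E2F site, TTCCCGC and TTGGCGC, for the MYC E-box CACGTG and for the RUNX core TGTGGT, none of which contains another. An E2F form was found in 22 of the 44 windows (50.0%), against 6.81% of all 32851 windows in the table, an E-box in 15.9% against 7.15%, and the RUNX core in 13.6% against 16.8%. Of the 35 members, 20 had an E2F match in at least 1 window, with a median log2 fold change of 0.27 (0.040 to 0.55), and 15 had none, with a median of 0.25 (0.012 to 0.54), so the members with and without a match covered nearly the same range. A match is a run of letters and not evidence of binding. Windows of the same gene can overlap and share a match, as those of Cdc7 do. The base composition of the members' windows was not matched to that of all windows. The windows of 6 genes show the range, picked after their values were seen, with E2F and E-box matches in capitals: Pola1 has the most E2F matches, Mcm3 a pair that overlap as TTGGCGCCAA, Mcm6 the same form in separate places, Mcm8 both motifs, Pole2 the largest fold change of the list and Pcna neither motif and the smallest one.
Pola1: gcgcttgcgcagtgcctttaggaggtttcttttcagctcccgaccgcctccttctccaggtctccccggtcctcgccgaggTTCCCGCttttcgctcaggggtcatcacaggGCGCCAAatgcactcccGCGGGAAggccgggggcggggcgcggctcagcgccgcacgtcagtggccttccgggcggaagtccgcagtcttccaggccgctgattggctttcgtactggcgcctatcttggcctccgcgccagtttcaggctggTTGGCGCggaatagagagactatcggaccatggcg
Mcm3: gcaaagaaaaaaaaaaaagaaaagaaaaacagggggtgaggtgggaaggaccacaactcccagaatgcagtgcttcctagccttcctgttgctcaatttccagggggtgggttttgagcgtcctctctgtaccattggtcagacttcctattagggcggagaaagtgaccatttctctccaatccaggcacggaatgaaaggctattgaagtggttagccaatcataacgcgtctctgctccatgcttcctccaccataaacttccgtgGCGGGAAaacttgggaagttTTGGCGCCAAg
Mcm6: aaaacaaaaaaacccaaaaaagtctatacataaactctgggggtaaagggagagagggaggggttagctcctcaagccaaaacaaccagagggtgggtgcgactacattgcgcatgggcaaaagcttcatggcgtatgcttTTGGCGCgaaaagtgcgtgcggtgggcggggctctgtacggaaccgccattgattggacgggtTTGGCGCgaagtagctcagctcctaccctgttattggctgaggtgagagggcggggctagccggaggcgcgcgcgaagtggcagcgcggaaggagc
Mcm8: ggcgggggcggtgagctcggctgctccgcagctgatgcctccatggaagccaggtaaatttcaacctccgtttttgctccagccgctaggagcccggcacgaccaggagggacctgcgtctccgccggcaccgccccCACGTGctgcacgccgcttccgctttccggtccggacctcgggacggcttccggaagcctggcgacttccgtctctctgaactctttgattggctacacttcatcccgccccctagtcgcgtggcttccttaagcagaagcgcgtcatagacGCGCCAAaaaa
Pole2: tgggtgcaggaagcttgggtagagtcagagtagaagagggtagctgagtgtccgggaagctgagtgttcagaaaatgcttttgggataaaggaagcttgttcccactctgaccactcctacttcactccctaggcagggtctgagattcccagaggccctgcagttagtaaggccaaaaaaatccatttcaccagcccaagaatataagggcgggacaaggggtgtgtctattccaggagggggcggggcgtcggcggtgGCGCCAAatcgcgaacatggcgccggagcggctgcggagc
Pcna: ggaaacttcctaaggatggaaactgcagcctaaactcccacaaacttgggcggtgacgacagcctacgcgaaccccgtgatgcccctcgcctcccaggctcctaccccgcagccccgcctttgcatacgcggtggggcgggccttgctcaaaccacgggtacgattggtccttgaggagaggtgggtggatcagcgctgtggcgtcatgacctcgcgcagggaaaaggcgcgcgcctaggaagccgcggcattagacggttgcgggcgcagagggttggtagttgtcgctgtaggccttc
These windows lie at chrX:93632106-93632405 (minus strand), chr1:20820263-20820562 (minus strand), chr1:128359656-128359955 (minus strand), chr2:132815891-132816190 (plus strand), chr12:69228141-69228440 (minus strand) and chr2:132253131-132253430 (minus strand). With the start site as base 1 and no base 0, the Pola1 matches begin at -169, -138, -121 and 16, those of Mcm3 at 20, 40 and 43, and those of Mcm6 at -109 and -46. In Mcm8 the E-box begins at -113 and the E2F match at 40, and in Pole2 the E2F match begins at 11.

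Among the origin recognition genes, the 6 log2 fold changes ran from 0.25 to 0.54, with a group median of 0.34. Orc1, an ATPase subunit of the complex, had log2 signals of 7.98, 8.37 and 8.15 on RUNX2/MYC replicates 1 to 3, against 7.65, 7.50 and 7.72 on WT replicates 1 to 3. The groups did not overlap, and the difference of 0.54 on the log2 scale, or 1.46-fold, had a standard error of 0.12 (adjusted p = 0.0838 from limma). Orc6, the smallest subunit, had 10.18, 10.45 and 10.29 on RUNX2/MYC arrays, against 10.20, 9.99 and 9.98 on WT arrays. WT replicate 1 was above the lowest RUNX2/MYC array there, and the log2 fold change of Orc6 was 0.25 (adjusted p = 0.252). Between them lay Orc2 at 0.44, Orc3 at 0.35, Orc5 at 0.33 and Orc4 at 0.29. Orc2 and Orc3 did not overlap between the groups, while Orc4 had the widest spread of any member, with an SD of 0.24 in RUNX2/MYC and 0.30 in WT (n = 3 each).

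The genes that bring the helicase to the origin differed less between the groups. Cdt1, the loader that geminin binds, had log2 signals of 10.03, 10.29 and 10.01 in RUNX2/MYC, against 10.04, 9.89 and 9.85 in WT. Only RUNX2/MYC replicate 2 stood clear of the WT arrays, and the log2 fold change was 0.19 (standard error 0.11, adjusted p = 0.339). Cdc6, the ATPase that works with ORC, had 8.33, 8.45 and 8.47 in RUNX2/MYC, against 8.37, 8.34 and 8.35 in WT, a log2 fold change of 0.061 with a 95% interval of -0.13 to 0.26. Gmnn, which encodes the inhibitor geminin, had 7.07, 7.30 and 7.15 in RUNX2/MYC, against 6.95, 7.01 and 7.13 in WT. Its groups overlapped too, with a log2 fold change of 0.14 (95% interval -0.093 to 0.38, adjusted p = 0.397).

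The 6 helicase subunits Mcm2 to Mcm7 had log2 fold changes between 0.11 and 0.31, a narrow band with a median of 0.19. Mcm3 was at the top, with 10.02, 10.25 and 10.13 in RUNX2/MYC, against 9.65, 9.87 and 9.96 in WT. These did not overlap, and the log2 fold change was 0.31 (standard error 0.11, adjusted p = 0.203). Mcm2, at the bottom, had 11.19, 11.32 and 11.20 in RUNX2/MYC, against 11.09, 11.19 and 11.10 in WT, where the lowest RUNX2/MYC array exceeded the highest WT array by 0.0074 alone. Its log2 fold change was 0.11 (adjusted p = 0.44). Mcm5 had a value of 0.21, Mcm6 of 0.19, Mcm7 of 0.18 and Mcm4 of 0.18, and of the 6 subunits only Mcm6 overlapped between the groups, by 0.0073. Every subunit was highest on RUNX2/MYC replicate 2.

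The other MCM proteins are not part of this ring. Mcm8, known for its part with MCM9 in recombination repair, had 8.10, 8.26 and 8.20 in RUNX2/MYC, against 7.89, 7.87 and 7.89 in WT. The WT arrays lay within an SD of 0.0094, the least of any member in WT, and the log2 fold change was 0.30 (standard error 0.084, adjusted p = 0.124). Mcm10, which helps to activate the loaded helicase, had 9.38, 9.56 and 9.39 in RUNX2/MYC, against 9.32, 9.33 and 9.08 in WT, without overlap and 0.20 apart on the log2 scale (adjusted p = 0.299).

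Kinase and cyclin genes of origin firing were split. Cdc7, the kinase that phosphorylates the MCM ring, had 8.23, 8.40 and 8.62 in RUNX2/MYC, against 7.91, 8.01 and 8.19 in WT, and the groups did not overlap, at a difference of 0.38 on the log2 scale (standard error 0.13, adjusted p = 0.178). Its activator Dbf4 was at 0.25, with WT replicate 3 above RUNX2/MYC replicate 1 by 0.030. For the cyclin E genes the values were 0.26 for Ccne1 (no overlap, adjusted p = 0.218) and 0.058 for Ccne2. Ccne2 had 9.78, 10.06 and 9.77 in RUNX2/MYC, against 9.90, 9.79 and 9.74 in WT, so a single RUNX2/MYC array was above all WT arrays. Cdc45 and the GINS genes, which complete the active helicase, ranged as widely. Gins4 had 10.48, 10.68 and 10.47 in RUNX2/MYC, against 10.28, 10.17 and 10.15 in WT, a log2 difference of 0.34 with a standard error 0.096 (adjusted p = 0.13), whereas Gins2, a subunit of the same complex, had 9.27, 9.41 and 9.11 in RUNX2/MYC, against 9.28, 9.21 and 9.14 in WT. The fold change of Gins2 was 0.0515 with a 95% interval of -0.20 to 0.30, that of Gins1 was 0.25, that of Cdc45 0.13 and that of Gins3 0.078, and only Gins4 and Gins1 had no overlap.

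For the subunits of polymerases delta and epsilon the median log2 fold change was 0.49, the highest of the 12 role lists, and for polymerase alpha and primase it was 0.33. Pole2, the accessory subunit of the leading-strand polymerase epsilon, had 8.96, 9.41 and 9.11 in RUNX2/MYC, against 8.71, 8.64 and 8.48 in WT. Each RUNX2/MYC array was above each WT array by at least 0.25, and the log2 fold change of 0.55 (adjusted p = 0.0985, standard error 0.135) was the largest of the 44. Pold2, the accessory subunit of the lagging-strand polymerase delta, had 11.14, 11.23 and 11.00 in RUNX2/MYC, against 10.75, 10.60 and 10.46 in WT, with group means 0.52 apart on the log2 scale (standard error 0.11). Pole, the catalytic subunit of epsilon, followed at 0.46 (adjusted p = 0.0836). Pold1, the catalytic subunit of delta, had 9.60, 9.70 and 9.60 in RUNX2/MYC, against 9.37, 9.44 and 9.37 in WT, a log2 difference of 0.24 with a standard error 0.082 (adjusted p = 0.175). None of these 4 genes overlapped between the groups.

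Primase makes the RNA primer that polymerase alpha extends. Prim1, its catalytic subunit, had 9.51, 9.86 and 9.89 in RUNX2/MYC, against 9.30, 9.30 and 9.40 in WT, a log2 difference of 0.42 with a standard error 0.12 (adjusted p = 0.137). Prim2, the large subunit, had 9.80, 10.01 and 10.00 in RUNX2/MYC, against 9.65, 9.74 and 9.79 in WT, and a value of 0.21 (adjusted p = 0.257). Neither overlapped, though the gap for Prim2 was 0.011. Pola2, the regulatory subunit of polymerase alpha, had the tightest RUNX2/MYC arrays of any member: 10.44, 10.43 and 10.44, against 10.07, 10.15 and 10.10 in WT. Its log2 fold change was 0.33 (standard error 0.078, adjusted p = 0.0898), and the widest gap between groups among the 44 members, 0.28, was that of Pola2. The catalytic subunit gene Pola1 had a similar fold change, 0.32, but arrays that overlapped, with an SD of 0.21 in RUNX2/MYC and 0.24 in WT (n = 3 each) and an adjusted p of 0.279.

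The sliding clamp and its loader differed in size of fold change. Pcna, the clamp, had 13.01, 12.98 and 12.96 in RUNX2/MYC, against 13.02, 12.99 and 12.92 in WT. This is the smallest fold change of the list, 0.012, with a 95% interval of -0.18 to 0.20. A second Pcna probe set had a log2 fold change of 0.011. The RFC genes, whose 5 products open the clamp around DNA, were all further from 0. Rfc4 had 11.50, 11.71 and 11.45 in RUNX2/MYC, against 11.37, 10.98 and 10.83 in WT, a log2 difference of 0.50 with a standard error 0.16 (adjusted p = 0.161), with WT replicate 1 well above the other WT arrays. Rfc3 was at 0.39, Rfc5 at 0.30, Rfc2 at 0.27 and Rfc1, the large subunit, at 0.19, and Rfc2, Rfc3 and Rfc4 had no overlap.

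At the single strand and at the joining of Okazaki fragments the fold changes were small. Rpa2 had 10.01, 10.04 and 10.02 in RUNX2/MYC, against 9.85, 9.85 and 9.75 in WT, a log2 difference of 0.20 with a standard error 0.081 (adjusted p = 0.216), and Rpa1, the large subunit of the same complex, had 10.27, 10.47 and 10.31 in RUNX2/MYC, against 10.21, 10.26 and 10.23 in WT, a value of 0.12 (adjusted p = 0.439). Both were free of overlap, Rpa1 by 0.013. Fen1, which trims the flap of each fragment, had 8.62, 8.97 and 8.71 in RUNX2/MYC, against 8.52, 8.54 and 8.68 in WT, with a fold change of 0.19 (95% interval -0.085 to 0.46). Lig1, which seals the nick, had 10.12, 10.27 and 10.21 in RUNX2/MYC, against 10.07, 10.32 and 10.08 in WT. Its highest array was WT replicate 2, and the log2 fold change was 0.040 (95% interval -0.20 to 0.28).

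**Figure D2:**
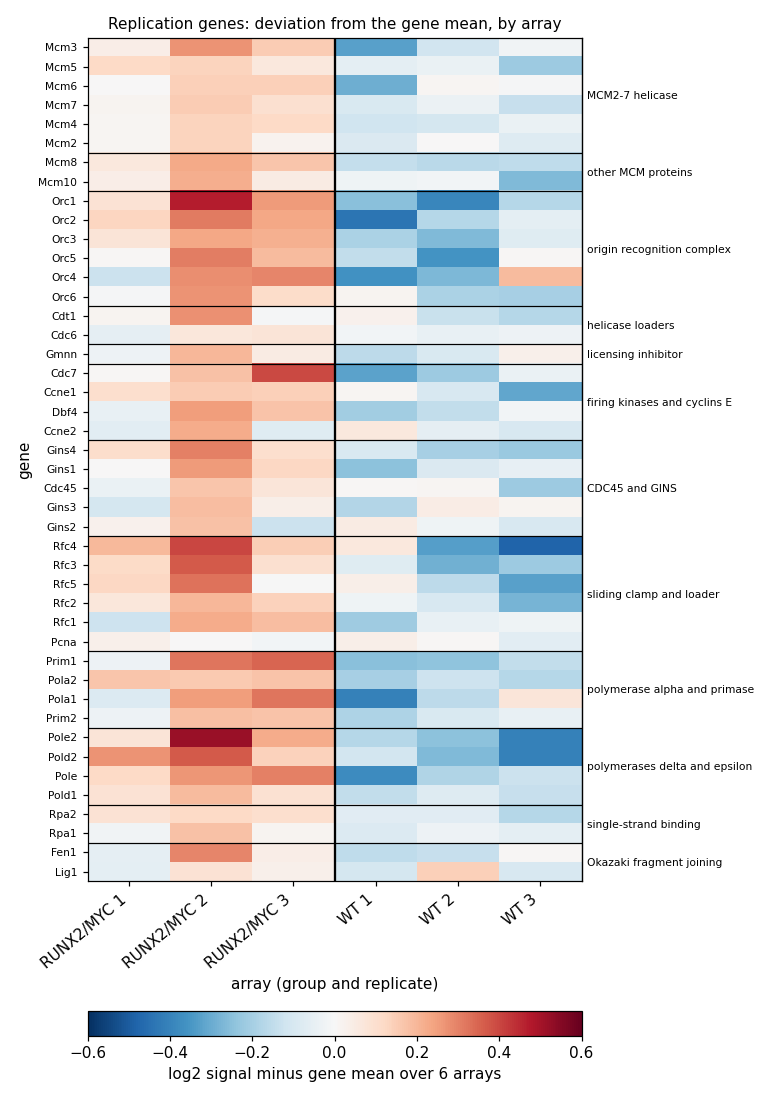
Log2 signal of each replication gene (y axis, grouped by role) minus its mean over the 6 arrays, by array (x axis), with red above and blue below the mean. RUNX2/MYC replicate 2 holds the highest value of 35 of the 44 genes, and WT replicate 1 the lowest of 21.

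Within RUNX2/MYC the arrays held an uneven place for these genes. RUNX2/MYC replicate 2 was the highest of the 3 RUNX2/MYC arrays for 36 of 44 members and replicate 1 the lowest for 33, and the median member lay 0.22 above its mean over 6 arrays on replicate 2, 0.12 above on replicate 3 and 0.015 above on replicate 1. On WT replicates 1 to 3 the median member lay 0.13, 0.11 and 0.097 below. This order within RUNX2/MYC was not particular to the members. For the 10797 bright single-symbol genes the median deviation was 0.13 on replicate 2, 0.065 on replicate 3 and -0.0285 on replicate 1. Their median deviations on WT replicates 1 to 3 were -0.078, -0.068 and -0.005. RUNX2/MYC replicate 2 exceeded all 3 WT arrays for 42 members, replicate 3 for 37 and replicate 1 for 27. The share of all probe sets was not counted for single arrays, so these counts have no background beside them. The array of highest values is also the one with high adipocyte markers, and without it 42 of 44 fold changes were still above 0, with a median of 0.20 against 0.25 with all arrays. Without RUNX2/MYC replicate 1, the array of high erythroid markers, the median was 0.30. Of the 11 epithelial markers, 9 separated the groups in the other direction, with lower values in RUNX2/MYC, as did the thymocyte stage markers Cd4, Rag1, Rag2 and Dntt. The epithelial markers Aire and Epcam and the thymocyte markers Ptcra, Cd8a and Cd1d1 overlapped between the groups. What part any of these markers' cells had in the members' fold changes was not tested.

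**Figure D3:**
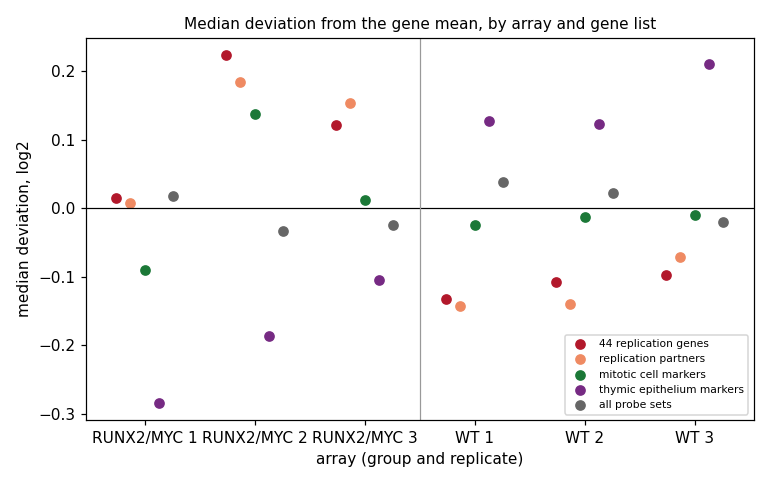
Median deviation from the gene mean (y axis, log2) of 4 gene lists and of all probe sets on each array (x axis). The 44 replication genes and their partners lie above 0 on all RUNX2/MYC arrays (0.015 to 0.22 for the 44 genes) and below 0 on all WT arrays, the mitotic markers show no such order, and thymic epithelium markers run the other way.

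The spread within groups depended on how arrays were scaled. In the deposited values the median SD over the members was 0.12 in RUNX2/MYC and 0.11 in WT (n = 3 arrays each), beside 0.13 and 0.13 for all genes of single-symbol probe sets, and 24 members had the larger SD in RUNX2/MYC and 20 in WT. The median SD was 0.068 in RUNX2/MYC and 0.13 in WT after quantile normalization, and 0.17 in RUNX2/MYC and 0.11 in WT after median centring, so neither group was the more variable under every scaling. In RUNX2/MYC the SD ran from 0.0057 for Pola2 to 0.24 for Orc4, and in WT from 0.0094 for Mcm8 to 0.30 for Orc4. Counted as a root mean square difference over the 44 members, 2 arrays of RUNX2/MYC were on average 0.18 apart, 2 arrays of WT 0.18 and 2 arrays of different groups 0.32 on the log2 scale. RUNX2/MYC replicate 1 was 0.22 from WT replicate 1, closer than the 0.23 between WT replicates 1 and 3.

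**Figure D4:**
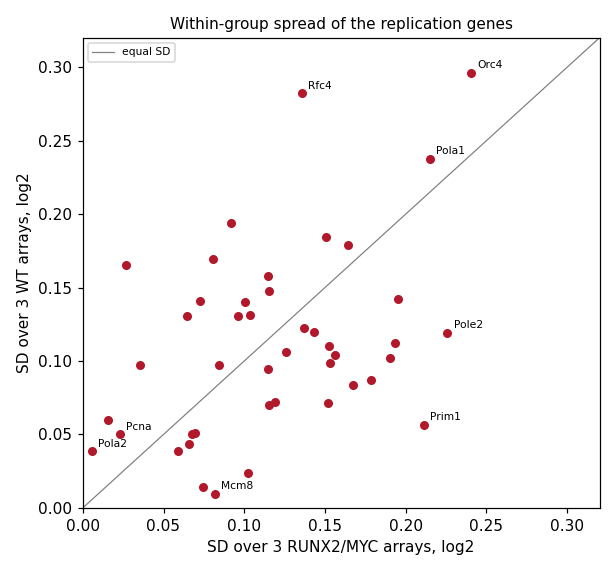
SD of the log2 signal over the 3 RUNX2/MYC arrays (x axis) and over the 3 WT arrays (y axis) for each of the 44 replication genes, with a line of equal SD. Orc4 is the most variable member in both groups (0.24 and 0.30), and 24 genes lie on the RUNX2/MYC side of the line.

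Other genes of S phase were set beside them from 6 lists, of which 83 of 87 genes were measured. Of 27 replication partners, 26 had a positive log2 fold change, with a median of 0.24, and 1 rose at an adjusted p under 0.05 from limma. That gene was Tipin, a fork protection factor that pairs with Timeless, with 10.06, 10.21 and 10.16 in RUNX2/MYC, against 9.62, 9.63 and 9.65 in WT, a log2 difference of 0.51 with a standard error 0.083 (adjusted p = 0.0371). Mtbp, a partner of the firing factor TICRR, had the highest value of this list, 0.57 (adjusted p = 0.127), and Clspn, the checkpoint mediator claspin, the lowest, -0.063. E2f6, a repressive E2F family member, rose as well, with 9.26, 9.48 and 9.71 in RUNX2/MYC, against 8.62, 8.53 and 8.86 in WT, a log2 difference of 0.81 with a standard error 0.14 (adjusted p = 0.0462). Tipin and E2f6 were the only genes of the 6 lists higher at that threshold, 2.41% of the 83. That share was 1.68% for all probe sets and 3.97% for the bright single-symbol genes. No gene of the 6 lists was lower there. Before adjustment limma gave a p under 0.05 to 22 higher genes (26.5%) and 3 lower genes (3.61%) of the 83. Those shares were 12.0% and 9.27% for all probe sets and 22.7% and 5.70% for the bright single-symbol genes.

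The remaining lists had medians between -0.036 and 0.094. E2F and pocket protein genes had 6 of 13 above 0 (median -0.036), with E2f7, a repressor that itself peaks in S phase, at -0.27 (adjusted p = 0.21). S phase control had 10 of 15 above 0 (median 0.067), from -0.22 for the ubiquitin ligase gene Fbxw7 to 0.55 for the checkpoint kinase gene Atr (adjusted p = 0.182). Deoxynucleotide supply had 5 of 8 above 0 (median 0.078), with the thymidylate kinase gene Dtymk at 0.34 (adjusted p = 0.114) and Samhd1, which breaks down deoxynucleotides, at -0.47 (adjusted p = 0.153). Histone deposition had 7 of 8 above 0 (median 0.094), from -0.25 for Uhrf1, which guides maintenance DNA methylation, to 0.23 for the histone chaperone gene Asf1a. Of 12 mitotic cell markers, 7 were above 0 (median 0.018), from -0.12 for the topoisomerase gene Top2a to 0.21 for the checkpoint kinase gene Bub1, and none passed an adjusted p under 0.05 from limma. Whether the replication genes differ from these lists was not tested.

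The call of Tipin held in 11 of 19 settings and that of E2f6 in 12. Those counts include the fit as reported and 1 setting that can alter Pcna alone. Leaving out replicate 2 or 3 of RUNX2/MYC, or replicate 1 or 2 of WT, ended both calls. In each of those fits only 3 or 4 of all 35556 probe sets were called higher, against 596 with all arrays. The loss was thus not particular to Tipin and E2f6. Leaving out replicate 3 of WT, with 540 probe sets called higher, ended the call of Tipin. Both calls also ended when each array was centred on its 75th percentile, where 209 probe sets were called higher. They ended too with the methods' test after Benjamini-Hochberg adjustment, where 162 were. Cyclic loess ended the call of Tipin, and the methods' test with q values that of E2f6. How arrays are scaled also set the size of the members' shift, which was 0.11 to 0.33 over 4 other scalings, with a positive median in each. The members' median exceeded that of all probe sets by 0.30 in the deposited values, by 0.17 after quantile normalization and by 0.12 after cyclic loess. Of the 18 alternatives, 6 change only the test or the probe sets tested and leave each fold change as it is, 1 can alter Pcna alone, and 11 move every member. Over those 11 the direction held for 35 members. The exceptions were Mcm2, Cdc6, Ccne2, Cdc45, Gins2, Gins3, Pcna, Rpa1 and Lig1, whose fold changes of 0.012 to 0.13 turned negative in at least 1.

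**Figure D5:**
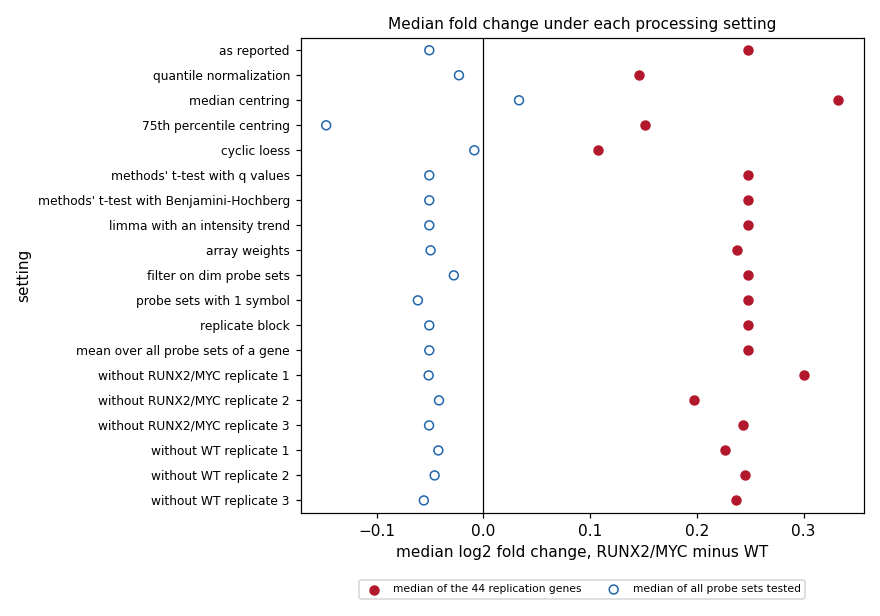
Median log2 fold change (x axis, RUNX2/MYC minus WT) of the 44 replication genes and of all probe sets tested under each processing setting (y axis). The members' median stays right of 0 and of the all-probe-set median in each setting, lowest at 0.11 with cyclic loess and highest at 0.33 with median centring.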

How the data were processed

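Whole-thymus RNA was hybridised to Affymetrix MoGene-1 arrays. The authors deposited log2 signals per probe set. They had been made by RMA, a method that removes background, scales the arrays to each other and combines the probes of a set, although array medians still ran from 7.31 to 7.44 in RUNX2/MYC and from 7.41 to 7.49 in WT. For software, the submitters' processing notes give Affymetrix Expression Console 1.4 but the methods give Partek with an adjustment for GC content, and which of them made these values is not stated. The deposited log2 values were used unchanged. The comparison of RUNX2/MYC with WT used limma 3.58.1 in R 4.3.3 over all 35556 probe sets, without a filter, with Benjamini-Hochberg adjustment and a threshold of 0.05 on the adjusted p, and the code was tested on simulated data. Of the probe sets, 21789 have 1 gene symbol in the annotation, 1621 several and 12146 none. Values of every array are given for the highest and lowest member of each of 12 role lists and, in the pathway lists, for genes past the threshold. Pold2 and Pola2 were added after their values were seen. Members and lists were chosen with earlier results of these data known. Precision is limited by having 3 arrays a group, for which the 10 possible splits hold an exact permutation test of a single value at p = 0.1 or above. Figures were drawn with matplotlib 3.10.9.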

Additional observations from a re-analysis of the deposited data

How the results depend on the processing

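The count of members higher at an adjusted p under 0.05, 0 with limma as reported, was 1 with median centring, 1 with an intensity trend, 1 with the methods' t-test (a one-way test of both groups) after Benjamini-Hochberg adjustment, 4 with its q values, 4 over probe sets with 1 symbol and 30 with array weights, and 0 to 2 when single arrays were left out, with Orc1 and Prim1 called without RUNX2/MYC replicate 1. The share of all probe sets called higher was 2.57% with median centring, 2.96% with the trend, 0.456% and 3.41% with the t-test after Benjamini-Hochberg adjustment and with q values, 5.67% over probe sets with 1 symbol, 25.8% with array weights and 2.45% without RUNX2/MYC replicate 1. No alternative called a member lower. Over all probe sets 596 were called higher as reported, 209 with 75th percentile centring and 3 to 872 without single arrays. The array weight fit did not converge, gave weights of 0.30 to 6.21 and called 9165 probe sets higher and 12137 lower. The count of pathway genes higher, 2 as reported, was 0 with 75th percentile centring, 1 with cyclic loess, 4 with the q values, 0 with that t-test after Benjamini-Hochberg adjustment, 4 over probe sets with 1 symbol, 37 with array weights and 0 to 4 without single arrays, and pathway genes lower, 0 as reported, were 1 with cyclic loess and 7 with array weights.

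The median member fold change, 0.25 as reported, moved to 0.15 with quantile normalization, 0.33 with median centring, 0.15 with 75th percentile centring and 0.11 with cyclic loess, and was 0.20 to 0.30 without single arrays. Members without overlap, 26 as reported, numbered 18 with quantile normalization, 20 with 75th percentile centring and 29 with median centring, all of them higher in RUNX2/MYC. With cyclic loess they numbered 15, 1 of them lower in RUNX2/MYC. The share of all probe sets without overlap was not counted under these scalings, so these counts have no background beside them. The median SD of members in RUNX2/MYC, 0.12 as reported, was 0.068 with quantile normalization, 0.17 with median centring, 0.073 with 75th percentile centring and 0.073 with cyclic loess, and 0.069 (without RUNX2/MYC replicate 1) to 0.138 (without replicate 3) with single arrays left out. That of WT, 0.11 as reported, was 0.13 with quantile normalization, 0.11 with median centring, 0.12 with 75th percentile centring and 0.13 with cyclic loess, and 0.069 without WT replicate 1, 0.065 without WT replicate 3 and 0.123 without WT replicate 2. The causes were not tested.

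Replicate numbers are shared by the groups. Deviations of same-numbered arrays had correlations of 0.50, -0.15 and 0.61 over all probe sets, and not every array correlated best with its own number. Whether the numbers are pairs cannot be told from these values, and the fit as reported did not take them as pairs. With the replicate block 3 members (Orc2, Pold2 and Pole) and 7 pathway genes were higher, where 4.65% of all probe sets were. The block called 1654 probe sets higher and 763 lower, against 596 and 45 as reported.

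Single members turned negative in 27 of the 485 comparisons in which the alternative moved the fold change. With quantile normalization these were Ccne2 (-0.040), Gins2 (-0.061), Gins3 (-0.0089), Pcna (-0.046) and Lig1 (-0.062). With 75th percentile centring, which lowers every member by the same 0.097 and so turns those below it, they were Cdc6 (-0.035), Ccne2 (-0.038), Gins2 (-0.045), Gins3 (-0.019), Pcna (-0.085) and Lig1 (-0.056). With cyclic loess they were Mcm2 (-0.026), Ccne2 (-0.091), Cdc45 (-0.0041), Gins2 (-0.079), Gins3 (-0.032), Pcna (-0.075), Rpa1 (-0.036) and Lig1 (-0.11), and with array weights Gins2 (-0.038), Pcna (-0.016) and Lig1 (-0.074). Leaving out 1 array turned Ccne2 to -0.039 and Gins2 to -0.024 (RUNX2/MYC replicate 2), Lig1 to -0.0021 (WT replicate 1) and Pcna to -0.016 (WT replicate 3). Without RUNX2/MYC replicate 1, Pcna was negative by so little that its value rounds to 0. Their highest values without single arrays were 0.128 for Gins2 and 0.033 for Pcna.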
